A study of Mus musculus with 12 samples.

Results

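The 10 core clock genes described here are Arntl, Clock and Npas2, called the Arntl arm, and Per1, Per2, Per3, Nr1d1, Nr1d2, Dbp and Tef, called the Per arm. They were taken by symbol from the 55304 genes counted in colonic epithelium of 12 C57BL/6 mice aged 6 weeks, and all 10 passed the filter on low counts that left 15743 genes. Each group held 4 mice. Control OIL mice were labelled wild-type, came from a line coded EVCER and received sunflower oil. Control TMX mice were labelled wild-type, came from a line coded VilCreER and received tamoxifen, the ligand that switches on the CreERT2 recombinase. Ehf IKO mice came from the EVCER line, received tamoxifen and were labelled Ehf intestinal knockouts; Ehf encodes an epithelial transcription factor of the ETS family. The CreERT2 of the Control TMX mice is driven by the Villin promoter, which is active in intestinal epithelial cells, and the alleles behind the code EVCER are not spelled out. Control TMX therefore differs from Control OIL in line and in treatment, and from Ehf IKO in line and genotype. Ehf IKO differs from Control OIL in treatment and genotype. The labels do not state the hour of collection of each colon.

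The circadian clock is a loop of transcription in which ARNTL (BMAL1) pairs with CLOCK or NPAS2 and switches on genes that carry E-box elements, among them the Per, Nr1d, Dbp and Tef genes. PER proteins, together with CRY proteins, repress that activator. The nuclear receptors NR1D1 and NR1D2 (REV-ERB) repress Arntl and Npas2 through ROR elements, so in most mouse tissues the Arntl and Per arms peak at different hours, and gut epithelium has such a clock of its own. DBP and TEF are PAR bZIP factors that carry the rhythm to D-box genes.

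Promoters in which a textbook clock element was found are shown so that the letters can be read beside the values. Each window runs from 250 bases before to 50 bases after a RefSeq transcript start on GRCm38.p6, and 9 of the 10 members, all but Per2, were matched, with 14 windows. Both strands were searched for the E-box CACGTG, the D-box TTATGTAA or TTACGTAA, and the ROR element TAGGTCA. Capitals mark the matches.
Arntl, chr7:113207261-113207560, plus strand: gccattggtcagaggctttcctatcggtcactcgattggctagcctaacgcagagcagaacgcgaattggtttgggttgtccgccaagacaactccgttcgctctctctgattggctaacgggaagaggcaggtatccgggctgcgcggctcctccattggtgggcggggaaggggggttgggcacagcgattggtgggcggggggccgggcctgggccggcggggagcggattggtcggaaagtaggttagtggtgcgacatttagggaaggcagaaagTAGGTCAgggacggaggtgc
Per1, chr11:69098699-69098998, plus strand: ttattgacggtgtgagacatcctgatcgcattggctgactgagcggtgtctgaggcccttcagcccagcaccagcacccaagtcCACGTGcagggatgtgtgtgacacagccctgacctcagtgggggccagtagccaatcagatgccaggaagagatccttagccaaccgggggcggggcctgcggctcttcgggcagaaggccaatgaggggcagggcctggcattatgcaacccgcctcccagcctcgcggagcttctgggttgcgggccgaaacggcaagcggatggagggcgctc
Per3, chr4:151044616-151044915, minus strand: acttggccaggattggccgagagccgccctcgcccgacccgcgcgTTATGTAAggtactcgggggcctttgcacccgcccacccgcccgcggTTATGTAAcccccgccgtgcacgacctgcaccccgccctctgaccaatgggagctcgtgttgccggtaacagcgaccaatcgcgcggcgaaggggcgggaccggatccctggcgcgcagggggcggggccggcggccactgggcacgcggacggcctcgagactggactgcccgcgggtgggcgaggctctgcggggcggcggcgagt
Tef, chr15:81802423-81802722, plus strand: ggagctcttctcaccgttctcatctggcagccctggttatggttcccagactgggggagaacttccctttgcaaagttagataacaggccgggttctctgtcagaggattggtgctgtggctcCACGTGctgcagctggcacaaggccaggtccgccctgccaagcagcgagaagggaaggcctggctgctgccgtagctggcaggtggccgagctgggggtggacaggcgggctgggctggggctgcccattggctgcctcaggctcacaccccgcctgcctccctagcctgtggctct
The Arntl element begins at base 31 of the transcript. The Per1 E-box begins 166 bases before the start, the Per3 D-boxes 205 and 158 bases before it, and the Tef E-box 127 bases before it. A second Tef window holds an E-box too. Of 32851 mouse promoter windows of the same length, 7.15% hold the E-box, 1.06% a D-box and 2.61% the ROR element. Of the 9 matched members, 2 had an E-box, 1 a D-box and 1 the ROR element. The windows of Clock, Npas2, Nr1d1, Nr1d2 and Dbp hold none of these letters, which describes these windows alone.

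Library totals ran from 7421411 to 10344161 counts, and the least counted member, Dbp, had 24 to 875 reads per library. Summed epithelial markers (Epcam, Cdh1, Krt8, Krt20, Vil1, Car1) stood at 5453 to 9555 CPM, counts per 1000000 after TMM scaling of library sizes. Fibroblast markers (6 genes) summed to 264 to 374 CPM in Control OIL, 388 to 667 CPM in Control TMX and 368 to 919 CPM in Ehf IKO, and no marker was at 0 in every library. Ehf itself read 385 to 481 CPM in Control OIL, 326 to 375 CPM in Control TMX and 309 to 371 CPM in Ehf IKO. Which Ehf exons Cre removes is not stated in the labels, and a gene count sums them all, so these values do not check the genotype. Xist was at 1450 to 2305 CPM in replicates 1 and 2 of every group and at 1.68 to 3.69 CPM in replicates 3 and 4. The animal numbers in the labels fall into the same pairs of replicates. The RNA is bulk, so fewer cells of a type and less RNA per cell cannot be told apart. The labels give each library its own animal number, and p-values measure the spread between these animals.

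Arntl, which encodes the obligate partner of the activator, was at 65.3, 75.2, 43.6 and 38.5 CPM in Control OIL replicates 1 to 4. In Control TMX it was at 23.1, 19.4, 47.2 and 59.5 CPM. In Ehf IKO it was at 63.2, 65.7, 73.6 and 61.8 CPM. The first and second Control TMX libraries were the lowest of the 12, and the Ehf IKO libraries lay close together above all of Control TMX. Npas2, which encodes an alternative partner of ARNTL, was at 39.3, 39.8, 23.3 and 20.04 CPM in Control OIL. It was at 20.8, 20.02, 35.1 and 34.5 CPM in Control TMX and at 42.0, 40.2, 48.8 and 33.0 CPM in Ehf IKO. As with Arntl, the high libraries were replicates 1 and 2 in Control OIL and replicates 3 and 4 in Control TMX, and all groups overlapped. Clock, which encodes the other partner of ARNTL, varied least. It was at 150.9, 144, 143 and 141 CPM in Control OIL, 103, 107.4, 126 and 134.6 CPM in Control TMX and 127, 134, 131 and 169.9 CPM in Ehf IKO. All 4 Control TMX libraries lay below all 4 Control OIL libraries, and Ehf IKO overlapped both.

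Dbp had the widest range of the members. It was at 3.35, 3.98, 13.6 and 20.3 CPM in Control OIL, at 136, 95.8, 10.8 and 6.73 CPM in Control TMX and at 7.80, 6.35, 3.99 and 3.63 CPM in Ehf IKO. The highest library was 40.5 times the lowest. Replicates 1 and 2 of Control TMX stood apart from the other 10 libraries, while the same numbers were the low ones in Control OIL. Tef, the related PAR bZIP gene, was at 11.3, 13.7, 40.001 and 64.5 CPM in Control OIL. It was at 177, 159, 38.1 and 20.1 CPM in Control TMX and at 32.7, 33.7, 15.4 and 13.2 CPM in Ehf IKO. Its order was that of Dbp in each group except between Ehf IKO replicates 1 and 2, and Control TMX was again the group of widest spread.

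Among the period genes, whose proteins repress the activator, Per1 was at 8.80, 24.5, 27.5 and 43.5 CPM in Control OIL, 105, 93.4, 29.0 and 17.5 CPM in Control TMX and 24.7, 28.0, 19.3 and 17.3 CPM in Ehf IKO. Per2 was at 12.2, 15.8, 32.9 and 49.5 CPM in Control OIL, 125, 93.7, 19.7 and 15.4 CPM in Control TMX and 26.3, 21.5, 21.6 and 17.6 CPM in Ehf IKO. In both genes replicates 1 and 2 of Control TMX were far above every other library, and Ehf IKO lay inside the range of Control OIL. Per3 was at 24.7, 28.7, 48.9 and 63.8 CPM in Control OIL, 137.15, 138.3, 47.5 and 28.2 CPM in Control TMX and 26.4, 22.8, 18.2 and 19.5 CPM in Ehf IKO. Every Ehf IKO library was below every Control TMX library for Per3, and Control OIL overlapped both.

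Nr1d1, the gene of the repressor REV-ERB alpha, was at 17.2, 26.3, 37.5 and 60.5 CPM in Control OIL, 88.4, 105.5, 68.1 and 40.9 CPM in Control TMX and 53.2, 52.9, 31.4 and 23.5 CPM in Ehf IKO. Nr1d2, the gene of REV-ERB beta, was at 30.2, 29.0, 44.7 and 52.5 CPM in Control OIL, 93.2, 72.2, 47.5 and 37.8 CPM in Control TMX and 42.7, 49.5, 27.8 and 33.7 CPM in Ehf IKO. Both genes kept the pattern of the Per genes at a smaller range, 6.14-fold for Nr1d1 and 3.35-fold for Nr1d2 between the highest and lowest libraries. Counting ignored strand and left out reads in more than 1 gene, which bears on pairs that overlap on opposite strands. Dbp shares 539 exon bases with Sphk2, 18.0% of its exon length, and Nr1d1 shares 263 bases with Thra, 8.55% of its length. Sphk2 ranged from 65.2 to 100 CPM and Thra from 40.9 to 62.0 CPM over the libraries. Like Dbp, Sphk2 was highest in Control TMX replicates 1 and 2, at 98.8 and 100 CPM, against at most 89.5 CPM in any other library. Per kilobase of exon, the median level was highest for Nr1d1, at 15.2 CPM per kb, then Clock at 9.79 and lowest for Dbp at 2.43 CPM per kb.

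**Figure D1:**
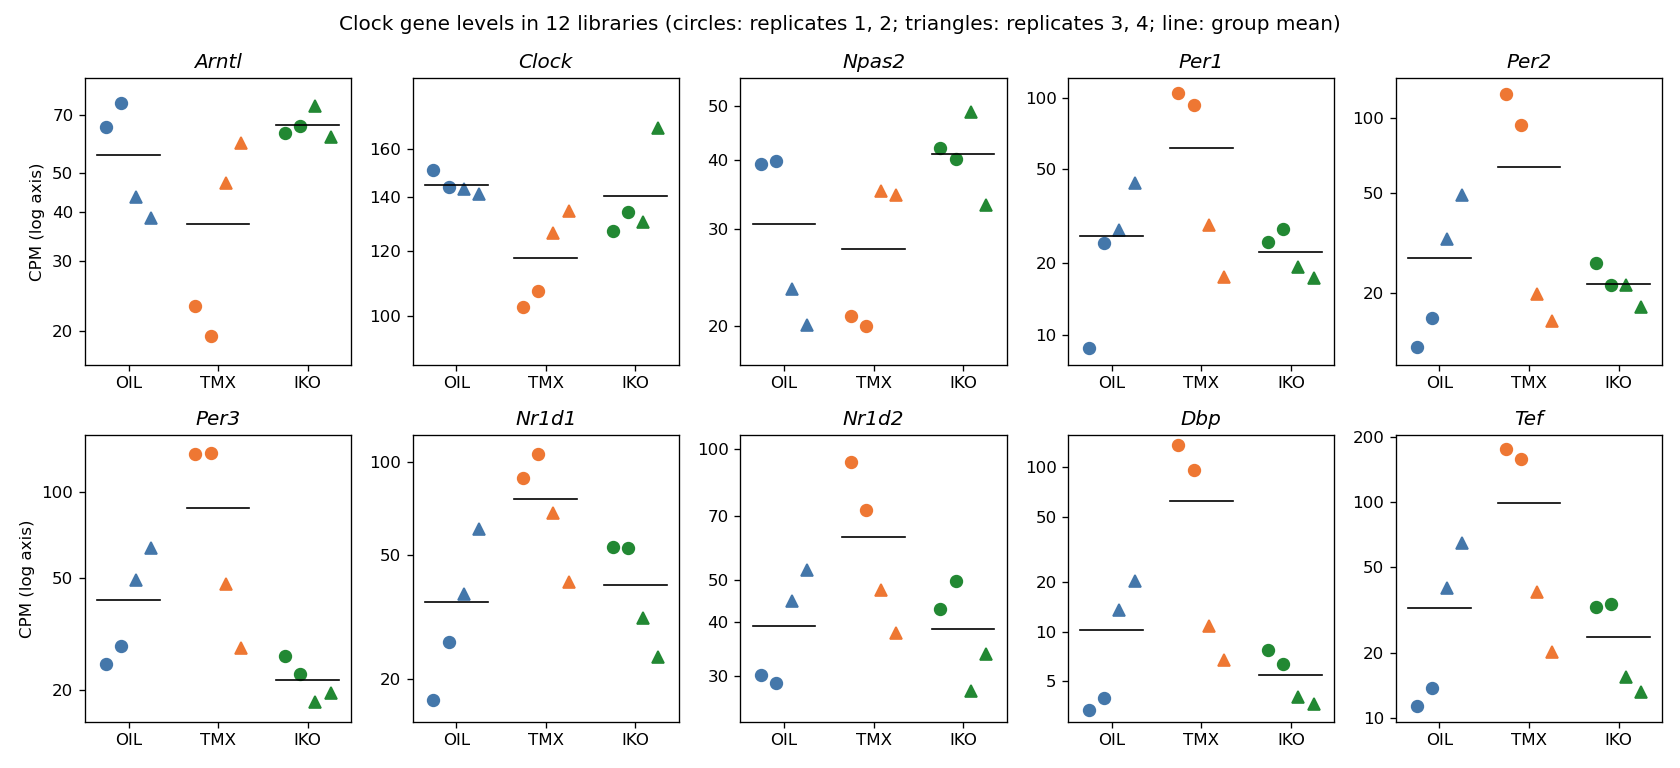
Level of each clock gene in CPM (log axis, its own scale in each panel) in Control OIL, Control TMX and Ehf IKO; circles are replicates 1 and 2, triangles replicates 3 and 4, and lines group means (n = 4). Control TMX replicates 1 and 2 are high for the Per arm, with Dbp at 136 and 95.8 CPM, and low for Arntl, at 23.1 and 19.4 CPM.

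The arms opposed each other over the libraries. All 21 pairs of an Arntl-arm gene and a Per-arm gene correlated negatively on log2 CPM over 12 libraries, with Pearson r from -0.97 to -0.59. Arntl and Dbp gave r = -0.97 (permutation p = 1e-05, the smallest that 100000 resamples can give; 6.43e-05 adjusted over the 45 pairs of members) and Spearman rho = -0.85 (permutation p = 0.00103, adjusted p = 0.0029). Because Control TMX replicates 1 and 2 stood apart, the correlations were repeated over the other 10 libraries. There Arntl and Dbp gave r = -0.91 (permutation p = 0.00048, adjusted p = 0.00504) and rho = -0.75 (permutation p = 0.0174, adjusted p = 0.0499), and r = -0.74 without 2 further libraries. Over these 10 libraries all 21 pairs between the arms stayed negative, from -0.91 to -0.20, and 8 had an adjusted p under 0.05 by r and 2 by rho. The 2 further libraries were those farthest from the median of the Arntl-arm gene. Without them, r between the arms ran from -0.74 for Arntl and Dbp to 0.39 for Npas2 and Per2. Arntl and Per2 gave -0.07, and several pairs with Clock or Npas2 turned positive. For Arntl and Dbp, r was -0.98 within replicates 1 and 2 of the 3 groups and -0.96 within replicates 3 and 4, 6 libraries each. Over all 21 pairs it ran from -0.99 to -0.75 within replicates 1 and 2. Within replicates 3 and 4 it ran from -0.97 to -0.01, the last for Clock and Per2. The permutations treated the libraries as exchangeable, though they fall into 3 groups and into replicate pairs, and the p-values do not allow for that. With values centred on group means, Arntl and Dbp gave r = -0.95, and the 21 pairs ran from -0.97 to -0.63. The pairing of the arms had been named with results of these data known, so these values describe it.

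Within the Per arm all 21 pairs correlated positively, with r from 0.79 to 0.98, and without Control TMX replicates 1 and 2 from 0.56 to 0.96. Dbp and Tef were the closest pair, with r = 0.98 over 12 libraries. Arntl and Npas2 gave r = 0.89 over 12 libraries and 0.90 over 10. The r of Clock with Arntl was 0.72 over 12 libraries and 0.05 over 10, so it rested on Control TMX replicates 1 and 2. Clock with Npas2 gave r = 0.39 over 12 libraries (permutation, adjusted p = 0.212) and -0.27 over 10. Clock is placed in the Arntl arm, and in the index below, by its known role and not by these correlations.

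**Figure D2:**
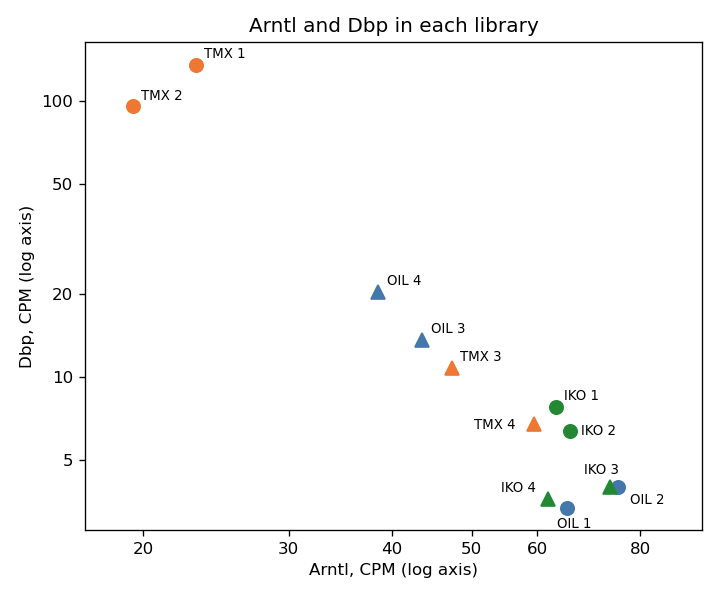
Dbp against Arntl, both in CPM on log axes, with 1 point per library (circles replicates 1 and 2, triangles replicates 3 and 4). Libraries run from Control TMX 1 and 2, high in Dbp and low in Arntl, to Control OIL 1 and 2 and Ehf IKO 3 and 4, with Dbp under 4 CPM.

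To place each library on 1 scale, a clock index was computed as the mean centred log2 CPM of the Per arm minus that of the Arntl arm. It was highest in Control TMX replicates 1 and 2, at 2.67 and 2.56. Control OIL replicates 4 and 3 followed at 0.97 and 0.29, then Control TMX replicate 3 at 0.10. The other 7 libraries lay below 0: Ehf IKO 1 and 2 at -0.40 and -0.47, Control TMX 4 at -0.67, Control OIL 2 at -1.14, Ehf IKO 4 and 3 at -1.18 and -1.20, and Control OIL 1 at -1.53. The 4 Control OIL libraries spanned 2.50 and the 4 Control TMX libraries 3.34, against 0.81 for Ehf IKO. The mean index of Control TMX was 1.16 ± 1.71, that of Control OIL -0.35 ± 1.18 and that of Ehf IKO -0.81 ± 0.44 (SD, n = 4).

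**Figure D3:**
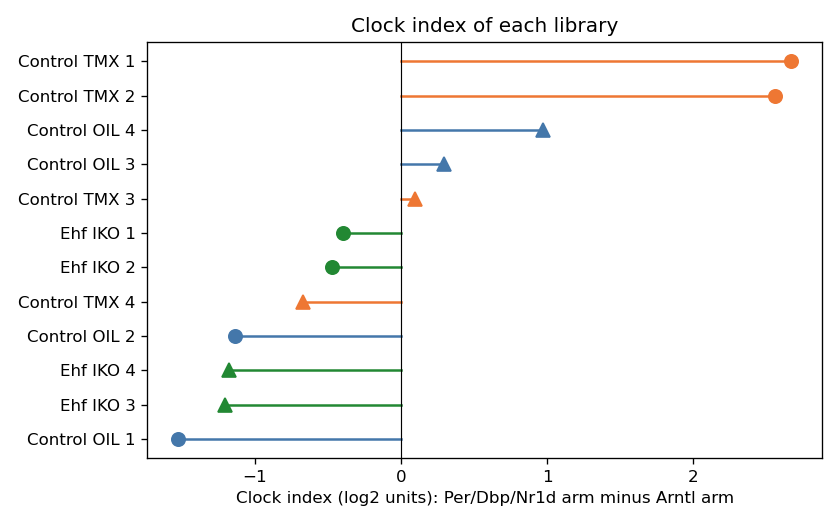
Clock index of each library in log2 units (Per arm minus Arntl arm), ordered from high to low; blue is Control OIL, orange Control TMX and green Ehf IKO, circles are replicates 1 and 2 and triangles replicates 3 and 4. Control TMX 1 and 2 are at 2.67 and 2.56, and Control OIL spans -1.53 to 0.97.

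Tamoxifen-treated and oil-treated controls were compared first. None of the 10 members was called with edgeR, where 0.0826% of all genes were (13 of 15743), 4 had an unadjusted p under 0.05, as did 12.9% of all genes, and DESeq2 called 0 of 10, beside 1.25% of all genes. The 7 Per-arm genes had higher Control TMX means and the 3 Arntl-arm genes lower ones. Dbp averaged 62.3 ± 64.0 CPM in Control TMX and 10.3 ± 8.17 CPM in Control OIL (SD, n = 4), a log2 difference of 2.55 ± 0.98 (SE; edgeR adjusted p = 0.333). Its SD in Control TMX exceeded its mean. Clock was the 1 of 10 members whose groups did not overlap, against 6.88% of all genes, at -0.30 ± 0.11 (adjusted p = 0.305). Per3 differed by 1.07 ± 0.50, Tef by 1.58 ± 0.80, Per2 by 1.18 ± 0.69 and Arntl by -0.56 ± 0.32. The median log2 difference was 1.18 for the Per arm and -0.30 for the Arntl arm, beside -0.01 for all genes tested. Without Control TMX replicates 1 and 2, chosen for exclusion after the data were seen, 6 of the 10 signs turned, with Dbp at -0.26 and Per2 at -0.66. The 8 glucocorticoid-responsive genes summed to 651 and 613 CPM in those libraries, the highest 2 of 12, and to 468 and 484 CPM in Control TMX replicates 3 and 4. Control OIL summed to 372 to 527 CPM and Ehf IKO to 429.7 to 607 CPM, and the part of this level in the clock values was not tested. The widest gaps in CPM between Control TMX replicates 1 and 2 and replicates 3 and 4 were in Fkbp5 (means 199 and 114) and Sgk1 (142 and 83.5). Tsc22d3 (26.8 and 25.3) and Errfi1 (93.2 and 87.4) were nearly level. Nfkbia (48.6 and 66.8) was the only one of the 8 lower in replicates 1 and 2.

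In Ehf IKO against Control TMX the 7 Per-arm means were lower and the 3 Arntl-arm means higher in Ehf IKO. No member was called with edgeR, where 0.8% of genes were (126), 9 had an unadjusted p under 0.05 beside 11.9% of all genes, and DESeq2 called 2, beside 1.94% of all genes. Per3 averaged 21.7 ± 3.68 CPM in Ehf IKO and 87.8 ± 58.2 CPM in Control TMX, a log2 difference of -2.003 ± 0.52 (edgeR adjusted p = 0.149, DESeq2 adjusted p = 0.00832). Dbp averaged 5.44 ± 1.98 CPM in Ehf IKO, at -3.49 ± 1.06 (edgeR adjusted p = 0.230, DESeq2 adjusted p = 0.00985). Over the alternatives the adjusted p of Per3 ran from 0.00832 to 0.924 and that of Dbp from 0.00985 to 0.999. Arntl differed by 0.81 ± 0.32 (edgeR adjusted p = 0.349). Arntl and Per3 were the 2 members without overlap between the groups, against 7.18% of all genes. Tef stood at -2.04 ± 0.82, Per2 at -1.53 ± 0.71, Per1 at -1.44 ± 0.61, Nr1d1 at -0.91 ± 0.41 and Nr1d2 at -0.70 ± 0.29. The medians were -1.53 for the Per arm and 0.56 for the Arntl arm, beside 0.02 for all genes. This comparison shares the Control TMX libraries with the one before it. Without Control TMX replicates 1 and 2 the index difference shrank from -1.97 to -0.52, and Per2 turned to 0.31. Without the filter on low counts 1 member, Npas2, was called, beside 1.21% of genes, and without Control TMX replicate 4 Per3 was, beside 0.852% of genes.

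Ehf IKO and Control OIL are the comparison within the EVCER line. They differ in tamoxifen as well as in genotype, and the 2 cannot be told apart. No member was called with edgeR, beside 1.68% of genes (265), none had an unadjusted p under 0.05 beside 11.9% of all genes, DESeq2 called 0 beside 3.39% of genes, and no member's groups were free of overlap, beside 6.54% of genes. Per3 at -0.94 ± 0.52 (adjusted p = 0.552), Dbp at -0.94 ± 1.08 (adjusted p = 0.843) and Tef at -0.46 ± 0.82 (adjusted p = 0.917) were the members farthest from 0. Npas2 stood at 0.43 ± 0.25 (adjusted p = 0.559), Arntl at 0.25 ± 0.32, Nr1d1 at 0.18 ± 0.42 and Nr1d2 at -0.03 ± 0.29. With these errors, a difference of 1 log2 unit in Dbp or Tef lies within 2 SE of 0 and was not resolved. The medians were -0.35 for the Per arm and 0.25 for the Arntl arm, and the index differed by -0.46 beside a pooled SD within groups of 1.22.

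The clock genes also differed inside the control groups, between replicates 1 and 2 and replicates 3 and 4. An edgeR fit with a mean for each group in replicates 1 and 2 and in replicates 3 and 4 (n = 2 per mean, added after the data were seen) gave the differences. The split was chosen with these values known, so its p-values and counts of called members, here and below, only describe it. Within Control TMX 7 of 10 members differed between those library pairs, beside 1.73% of genes: Dbp by 3.73 ± 0.25 (adjusted p = 1.41e-06), Per2, Per3, Nr1d2 and Tef were higher and Arntl (-1.33 ± 0.16, adjusted p = 0.000346) and Npas2 lower in replicates 1 and 2. Within Control OIL 6 members differed the other way, beside 0.915% of genes, with Dbp at -2.21 ± 0.29 (adjusted p = 0.00179) and Arntl at 0.78 ± 0.15 (adjusted p = 0.0162). Within Ehf IKO edgeR called 0 members, beside 0.0762% of genes, and 4 of 10 had an unadjusted p under 0.05, beside 20.3% of genes; DESeq2 was not run on this fit. Replicate pair, Xist level and run of animal numbers cannot be told apart here.

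Opposite signs in the replicate pairs were found for 8 of 10 members between Control TMX and Control OIL. Between Ehf IKO and Control TMX they were found for 1 of 10. The share of all genes with opposite signs was not computed, and the members vary together, so they are not 10 separate observations. Between Control TMX and Control OIL, all 10 members were called in replicates 1 and 2, beside 8.96% of genes, with the 7 Per-arm genes higher and the 3 Arntl-arm genes lower. Dbp rose by 4.96 ± 0.28 on the log2 scale (adjusted p = 1.03e-06) and Arntl fell by 1.73 ± 0.16 (adjusted p = 4.34e-05). In replicates 3 and 4, 2 members were called, beside 1.55% of genes, in the opposite directions: Per2 fell by 1.24 ± 0.22 (adjusted p = 0.0124) and Npas2 rose by 0.69 ± 0.16 (adjusted p = 0.0479). The test of the change itself called 9 of 10 members, all but Clock, beside 4.5% of genes.

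Ehf IKO against Control TMX gave 8 called members in replicates 1 and 2, beside 5.02% of genes, with Dbp at -4.02 ± 0.26 (adjusted p = 1.85e-06) and Per3 at -2.48 ± 0.21 (adjusted p = 3.87e-05) lower and Arntl at 1.604 ± 0.16 (adjusted p = 5.43e-05) higher. In replicates 3 and 4 edgeR called 0, beside 0.515% of genes, and 6 of 10 had an unadjusted p under 0.05, beside 8.91% of genes. The change between replicate pairs was called for Per2, Dbp and Arntl, beside 0.0699% of genes. Against Control OIL, Ehf IKO had 2 called members in replicates 1 and 2, beside 3.3% of genes, with Tef up by 1.40 ± 0.32 and Nr1d2 up by 0.64 ± 0.17. In replicates 3 and 4 it had 7, beside 2.64% of genes, with Dbp down at -2.16 ± 0.30 and Tef at -1.87 ± 0.31, and Arntl up by 0.72 ± 0.15. The change was called for Per2, Dbp, Nr1d2 and Tef, beside 0.311% of genes. In the replicate pairs 8 of 10 members had opposite signs, again with no share over all genes computed. The index difference was 0.90 in replicates 1 and 2 and -1.82 in replicates 3 and 4 between Ehf IKO and Control OIL, -3.05 and -0.90 between Ehf IKO and Control TMX, and 3.94 and -0.92 between Control TMX and Control OIL.

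**Figure D4:**
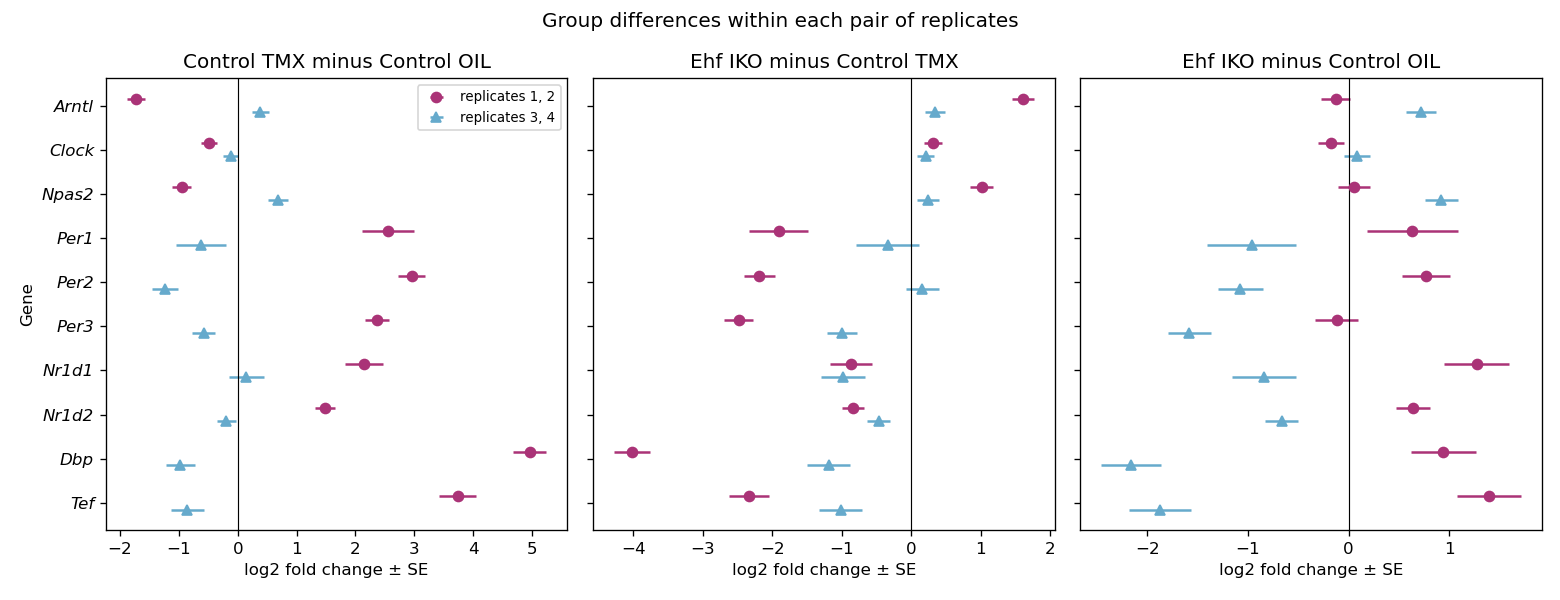
Log2 difference of each clock gene between groups within replicates 1 and 2 and within replicates 3 and 4 (n = 2 libraries per group, bars SE) in the 3 comparisons. Dbp goes from 4.96 to -0.97 between Control TMX and Control OIL and from 0.94 to -2.16 between Ehf IKO and Control OIL.

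Adding the clock index as a term in the fit gave other calls over all genes. Between Ehf IKO and Control OIL, 262 of the 265 calls (98.9%) were made again, within 475. Between Ehf IKO and Control TMX 55 of 126 (43.7%) were made again, within 87, and between Control TMX and Control OIL 6 of 13 (46.2%), within 9. The index differed by -1.97 between Ehf IKO and Control TMX and by 1.51 between the controls, beside a pooled SD within groups of 1.22. In those 2 comparisons the shares of index and group in the lost calls cannot be told apart. Between Ehf IKO and Control OIL the index differed by -0.46, less than that SD. Leaving out Control TMX replicates 1 and 2 left 225, 28 and 1 called genes, with fewer libraries in the fit.

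Other clock genes were read from a list of 22, of which 18 were tested; edgeR called 0 in each comparison. For Ehf IKO against Control OIL 1.68% of all genes were called, and 0 of the 18 had an unadjusted p under 0.05, beside 11.9% of all genes. For Ehf IKO against Control TMX (0.8% called) 5 had, beside 11.9%, and for Control TMX against Control OIL (0.0826% called) 6 had, beside 12.9%. Ciart, which encodes a repressor of CLOCK and BMAL1, was at 1.54, 1.77, 4.08 and 7.90 CPM in Control OIL, 26.6, 21.1, 2.12 and 2.43 CPM in Control TMX and 2.21, 3.45, 1.86 and 0.94 CPM in Ehf IKO, the pattern of Dbp. Nfil3, which encodes a repressor at D-boxes and was chosen after its values were seen, was at 11.3, 10.2, 7.52 and 5.53 CPM in Control OIL and 2.64, 1.61, 7.94 and 7.29 CPM in Control TMX. Cry2, a partner of the PER proteins, was at 52.2, 44.7, 32.9 and 22.6 CPM in Control TMX and differed from Control OIL by 0.96 ± 0.27 (edgeR adjusted p = 0.203). Usp2, a deubiquitinase gene, differed by -1.36 ± 0.36 between Ehf IKO and Control TMX (adjusted p = 0.122), and Timeless, a replication fork gene, by -0.90 ± 0.24 between Control TMX and Control OIL (adjusted p = 0.178). Cipc and Nampt stood at -0.76 ± 0.25 and 0.33 ± 0.11 between Ehf IKO and Control TMX, and Usp2 and Nampt at 1.17 ± 0.35 and -0.35 ± 0.11 between the controls. Between Ehf IKO and Control OIL, Arntl2 stood at -0.54 ± 0.26 (adjusted p = 0.446), Timeless at -0.47 ± 0.24 and Cry2 at 0.46 ± 0.27.

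The genes most like the index over the 12 libraries were sought among 11878 genes that are no members. The highest r belonged to Ciart (0.97), Lnx1 (0.96), Ganc (0.96), Serac1 (0.96) and Cdk18 (0.95), and the lowest to Cystm1 (-0.96), Fermt1 (-0.95), Leo1 (-0.95), Dock11 (-0.94) and Bzw1 (-0.94). Serac1 kept r = 0.98 and Ciart 0.86 over the 10 libraries without Control TMX replicates 1 and 2. With Arntl, Guca2b and Dusp6 gave r = 0.95 each and Zc3h15 0.94, and with Dbp, Ciart and Fam161a gave 0.97 each and Lnx1 0.95. These are ranks over the same libraries, with no test.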

How the data were processed

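Total RNA of 12 colonic epithelium samples was sequenced. Per the file headers, the authors counted reads per gene with featureCounts 1.6.1 over Ensembl release 98 exons with strand setting 0, and the deposited values are raw counts. The submitters' processing notes name GRCm38 and STAR, with no version for the aligner. The header sets no option to keep reads that map to several places or genes. Totals were 7421411 to 10344161.

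Groups came from the labels. Counts were fitted in R 4.3.3 with edgeR 4.0.16 (TMM, filterByExpr, 1 quasi-likelihood fit of 12 libraries, 9 residual degrees of freedom, robust and legacy settings), giving 3 contrasts over 15743 genes with Benjamini-Hochberg adjustment. An adjusted p under 0.05 was called. The common biological coefficient of variation was 18.3%. Log2 CPM used a prior count of 2. Correlations used 100000 permutations, two-sided. The fit of 6 means had 6 residual degrees of freedom. The scripts were tested on simulated data. DESeq2 1.42.0, other filters and scaling, a replicate block, and leaving out libraries were alternatives. The members and lists were chosen with earlier results of these data known. Named genes were all members, called members of the lists up to 4 further ones by p in a comparison, and the genes most like the index; Nfil3 was added after its values were seen, and some genes the rule selects are not reported here.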

Additional observations from a re-analysis of the deposited data

Results flagged for a closer look

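One library lay far from the rest of its group: of 33 sets of 4 libraries checked, Clock in Ehf IKO replicate 4, at 170 CPM, was the 1 found, its gap taking 0.833 of the range against a critical value of 0.829. Chance gives about 1 such set in 20.

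In 16 of 30 tests, a member's difference between groups differed between replicates 1 and 2 and replicates 3 and 4 (log2 difference of differences, edgeR adjusted p). Between Control TMX and Control OIL these were Dbp 5.94 (4.99e-06), Tef 4.59 (0.000795), Per2 4.19 (2.94e-05), Per1 3.17 (0.0347), Per3 2.94 (0.000136), Nr1d1 2.00 (0.0389), Nr1d2 1.67 (0.00124), Npas2 -1.64 (0.00153) and Arntl -2.11 (9.06e-05). Between Ehf IKO and Control TMX they were Arntl 1.26 (0.043), Per2 -2.35 (0.0307) and Dbp -2.83 (0.0325). Between Ehf IKO and Control OIL they were Tef 3.27 (0.0252), Dbp 3.10 (0.0237), Per2 1.85 (0.0405) and Nr1d2 1.30 (0.0291). The comparisons share libraries. Of all genes, 4.5% were called in this test between Control TMX and Control OIL. The share was 0.0699% between Ehf IKO and Control TMX and 0.311% between Ehf IKO and Control OIL. The split into replicate pairs was added after the data were seen, with n = 2 per mean, so these p-values only describe it.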

How the results depend on the processing

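Of 190 alternative values of the members' differences each, 181, 185 and 182 kept sign and side of the threshold for Ehf IKO against Control OIL (A), Ehf IKO against Control TMX (B) and Control TMX against Control OIL (C). The share of tested genes called, 1.68%, 0.8% and 0.0826% in A, B and C, became 3.39%, 1.94% and 1.25% with DESeq2 (534, 305 and 197 genes). Without a filter it was 1.76%, 1.21% and 1.07% (724, 500 and 441 genes). In A it was 0.74% when the compared groups were fitted alone and 3.02% with the clock index as a term, and in C 0.222% with Xist as a term. Without Control TMX replicates 1 and 2 it was 0.169% in B and 0.00603% in C. Leaving out 1 library gave 0.65% to 4.41% in A, 0.312% to 1.0% in B and 0.0187% to 0.415% in C.

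Members called in B went from 0 to 2 with DESeq2 (Per3, Dbp) and 1 with no filter (Npas2 at 0.52, adjusted p = 0.033, with 0.033 to 0.999 over its alternatives). Leaving out 1 library gave 0 to 1 (Per3 at -2.30 without Control TMX replicate 4).

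Leaving out 1 library turned signs in A, over these ranges: Clock -0.15 to 0.0016, Per1 -0.52 to 0.13, Per2 -0.59 to 0.10, Nr1d1 -0.047 to 0.58, Nr1d2 -0.17 to 0.15 and Tef -0.73 to 0.14. Control OIL replicate 4 was the library left out for the positive Per1, Per2 and Tef values, and Control OIL replicate 1 for the negative Nr1d1 value. In C, Npas2 ran from -0.30 to 0.016. Without Control TMX replicates 1 and 2, Per2 turned to 0.31 in B, and in C Npas2 went to 0.19, Per1 to -0.18, Per2 to -0.66, Per3 to -0.14, Dbp to -0.26 and Tef to -0.16. The index difference went to -0.52 in B and 0.061 in C. The cause was not tested.

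With the replicate number as a block, 1.10%, 0.457% and 0.114% of genes were called (173, 72 and 18), and no member. Deviations of same-numbered libraries from their group means correlated at r -0.41 to 0.40 (12 pairs, median 0.09). Those of other-numbered libraries correlated at -0.35 to 0.37 (36 pairs, median -0.02). These overlapping values cannot exclude a pairing by number, and the main fit assumed none.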

Other observations

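Genes outside the clock that hormones or handling move were read from lists. Of 8 glucocorticoid-responsive genes, Errfi1, a feedback inhibitor of EGF receptor signalling, rose between Ehf IKO and Control OIL by 0.87 ± 0.18 on the log2 scale (edgeR adjusted p = 0.0248), 1 of 8 beside 1.68% of all genes. Errfi1 stood at 0.44 ± 0.18 between Control TMX and Control OIL (edgeR adjusted p = 0.332). It stood at 0.43 ± 0.18 between Ehf IKO and Control TMX (edgeR adjusted p = 0.359). No other call was made on that list. Fkbp5, a chaperone of steroid receptors, was at 182, 215, 102 and 125 CPM in Control TMX replicates 1 to 4 and differed by -0.77 ± 0.22 between Ehf IKO and Control TMX (adjusted p = 0.150). Of 7 immediate early genes, Fos rose by 0.62 ± 0.13 (edgeR adjusted p = 0.0243) and Jun by 0.47 ± 0.10 (adjusted p = 0.0291) between Ehf IKO and Control OIL. These were 2 of 7 beside 1.68% of all genes, and 5 of 7 had an unadjusted p under 0.05, beside 11.9%. Between Ehf IKO and Control TMX edgeR called 0, beside 0.8% of genes, and 2 had an unadjusted p under 0.05, beside 11.9%. Between the controls it called 0, beside 0.0826%, and 4 had an unadjusted p under 0.05, beside 12.9%. DESeq2 calls were not read for this list. Of 5 PAR bZIP targets known from mouse liver, 2 were tested, and Por, which encodes cytochrome P450 reductase, rose between Control TMX and Control OIL by 0.73 ± 0.13 (adjusted p = 0.0418), 1 of 2 beside 0.0826% of all genes. Por was at 156, 151.3, 154 and 145 CPM in Control TMX and at 94.6, 104, 80.001 and 87.0 CPM in Control OIL. In Ehf IKO, where Dbp was at 3.63 to 7.80 CPM, Por was at 140.6, 147.3, 132 and 94.0 CPM. Its difference between Ehf IKO and Control OIL was 0.49 ± 0.13 (edgeR adjusted p = 0.0674). A link of Por with Dbp or Tef was not tested.

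Between Ehf IKO and Control OIL, the fibroblast markers Col1a2 (1.10 ± 0.25, adjusted p = 0.0445) and Col3a1 (1.05 ± 0.22, adjusted p = 0.0318) and the surface epithelium gene Krt20 (0.71 ± 0.17, adjusted p = 0.0438) rose. These were 2 of 6 fibroblast and 1 of 6 epithelial markers, beside 1.68% of all genes. Between Control TMX and Control OIL, Col1a2 stood at 0.75 ± 0.25, Col3a1 at 0.72 ± 0.22 and Krt20 at 0.44 ± 0.17 (edgeR adjusted p = 0.267, 0.245 and 0.303). Between Ehf IKO and Control TMX they stood at 0.35 ± 0.25, 0.32 ± 0.22 and 0.26 ± 0.17 (edgeR adjusted p = 0.627, 0.620 and 0.582). Fibroblast markers summed to 667, 388, 532 and 590 CPM in Control TMX replicates 1 to 4. Smooth muscle markers summed to 14.4 to 81.2 CPM, endothelial ones to 2.80 to 11.6, immune ones to 10.4 to 28.6 and neuron and glia ones to 1.88 to 4.14 over the 12 libraries. The mitochondrial share of counts was 26.2% and 12.2% in Control TMX replicates 1 and 2. The part of these levels in the clock values was not tested.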
